A study of Mus with 2 samples.

Results

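Loop of Henle cells were examined in single-cell RNA libraries from kidneys of newborn mice (P0). A barcode was counted as a loop of Henle cell when it held at least 4 unique molecular identifiers (UMIs) of Slc12a1 and Umod together, more Slc12a1 than Slc12a3 UMIs, no Pecam1 UMI and at most 1 UMI each of Slc34a1, Aqp2 and Col3a1. Barcodes had first to pass a minimum of 2000 UMIs and a limit of 10% mitochondrial UMIs. The rule found 171 cells among 6220 kept barcodes in replicate 1, a share of 2.75% (exact binomial 95% interval 2.36 to 3.19%). It found 151 among 5149 in replicate 2, a share of 2.93% (2.49 to 3.43%). In all, 322 of 11369 kept barcodes were loop of Henle cells.

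Both libraries came from mutants of the genotype Rbpj c/- ; Foxd1cre/+, in which Foxd1Cre, active in the renal interstitium, deleted the conditional allele of Rbpj beside a null one. Foxd1 lineage cells form the interstitium, so the tubule cells described here lie outside the compartment at which the deletion was aimed. The control libraries were not analysed here, and no value below compares genotypes. The labels do not say which animals, or how many, each library holds. Xist, given below, was abundant in replicate 1 and nearly absent from replicate 2, so the libraries did not hold the same set of animals. Library was a block in every fit, so the p-values rest on how far differences between classes varied between these 2 libraries.

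The loop of Henle is the hairpin of the nephron that builds the salt gradient of the renal medulla. Its thick ascending limb takes up sodium, potassium and chloride through the cotransporter NKCC2, encoded by Slc12a1 and recycles potassium through the apical channel ROMK, encoded by Kcnj1. The sodium pump drives the whole process, and cation-selective claudins let calcium, magnesium and sodium cross between cells. Umod encodes uromodulin, the protein that the thick limb secretes into urine. At the top of the limb lies the macula densa, a small plaque of salt-sensing cells that express the neuronal nitric oxide synthase Nos1 and the cyclooxygenase Ptgs2 and signal to the glomerulus.

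The genes that chose the cells can only be described. Slc12a1 (ENSMUSG00000027202, chromosome 2, 125152510 to 125230002 in GRCm38.p6) stood at 2128 CPM (a UMI count scaled to the summed UMIs of the class) in the loop of Henle cells of replicate 1 and 2013 CPM in replicate 2, against 23.0 and 32.9 CPM in all other kept barcodes. Umod (ENSMUSG00000030963, chromosome 7, 119462708 to 119479262) stood at 163 and 320 CPM, against 6.86 and 6.07 CPM. The median cell held 49 Slc12a1 UMIs in replicate 1 and 33 in replicate 2, and the highest cell 703 and 708. The median Umod count was 1 UMI in each library, and 54.4% and 58.3% of the cells held any. Just inside the rule, 7 cells in each library held exactly 4 UMIs of the pair. Just outside it, 6 and 10 barcodes that met every other condition held exactly 3. A further 56 and 49 barcodes had 4 or more UMIs of the pair but failed another condition, most often because Slc12a1 was not above Slc12a3 (30 and 28 barcodes).

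The label was checked against its other markers. Kcnj1 (chromosome 9, 32372418 to 32399197) stood at 100.2 and 112 CPM in the loop of Henle cells, against 2.69 and 2.59 CPM elsewhere. Tmem72 (chromosome 6, 116691539 to 116716982), a membrane protein gene used as a thick limb marker, stood at 134 and 119 CPM against 5.29 and 5.15 CPM. A Kcnj1 UMI was seen in 66.7% and 57.6% of the cells, and in 1.54% and 1.78% of the other barcodes. With every cell thinned at random to 5000 UMIs, the shares were 39.4% and 28.2%, against 0.604% and 0.612%; thinning left out 1 and 2 loop of Henle cells and 750 and 585 other barcodes. The water channel gene Aqp1, a marker of the descending thin limb, stood at 0.854 and 0.179 CPM, below the 24.7 and 23.0 CPM of the other barcodes. In the 9 distal tubule barcodes described below, Kcnj1 stood at 275 and 96.6 CPM and Tmem72 at 337 and 156 CPM, and neither was called against them (adjusted p 0.53 and 0.16 by edgeR). The label thus held for Kcnj1 and Tmem72 against the other barcodes as a whole but not against that small class, while the wider thin limb list, given below, was divided.

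The rule counts UMIs without scaling for depth, so depth is not independent of it. Loop of Henle cells were deeper than the other barcodes. Their median was 23919 and 17870 UMIs with 5422 and 4587 genes, against 11822 and 12176.5 UMIs with 3515 and 3562 genes. In replicate 1, 55 cells had more than 50000 UMIs and carried 72.1% of the set's UMIs, and in replicate 2, 28 such cells carried 58.6%, so summed levels weigh these cells most. Whole libraries held 163405630 and 135436576 UMIs. Of the kept barcodes, 6 occurred in both libraries, and none of those was a loop of Henle cell. Among 3414 genes at 50 CPM or more in the cells, 8 were over 2-fold higher in replicate 1 and 3 in replicate 2; Xist stood at 999.6 CPM in replicate 1 and had no UMI in replicate 2, and in the other barcodes it stood at 1178 and 0.208 CPM.

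Markers of other cell types were mostly lower in the set than in the other barcodes. Summed over their lists, leaving out the genes of the rule, podocyte markers stood at 91.5 and 10.2 CPM against 390 and 400 CPM elsewhere, stromal markers at 24.1 and 8.04 CPM against 553 and 629 CPM, endothelial markers at 3.05 and 2.32 CPM against 246 and 191 CPM, and erythroid markers at 402 and 522 CPM against 19280 and 16747 CPM. Ureteric tip markers were low in both, at 9.02 and 15.9 CPM against 24.0 and 19.6 CPM. Nephron progenitor markers stood at 87.3 and 43.4 CPM against 304 and 352 CPM, and 45 and 20 of the cells held 4 or more of their UMIs. The conditions on Col3a1 and Pecam1 also hold down the genes that go with them, so the stromal and endothelial sums are not independent of the rule. The proximal tubule gene Slc5a12 had no UMI. The conditions on Slc34a1, Aqp2 and Slc12a3 act likewise on proximal tubule, collecting duct and distal tubule genes. Low levels of such genes, here Slc5a12 and below Cldn2, Hnf4a, Gata3 and Calb1, are therefore not independent of the rule. The podocyte signal of replicate 1 sat in few cells: 6 cells held 4 or more such UMIs, and the 3 richest carried 84.1% of them. Early nephron markers (Lhx1, Wnt4, Jag1, Fgf8) were at 299 and 181 CPM against 495 and 480 CPM, and 82 and 51 of the cells held 4 or more of their UMIs. Between cells lies free RNA: barcodes of at most 100 UMIs had 157 and 142 CPM of Slc12a1.

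What else marked these cells was asked by setting the summed UMIs of each library's loop of Henle cells against all its other kept barcodes, with edgeR's quasi-likelihood test and Benjamini-Hochberg adjustment over all genes. Of 16490 genes tested outside the rule, 3533 were higher (21.4%) and 4169 lower (25.3%) at an adjusted p of at most 0.05. The set against which they were compared is a mixture of every other cell type of the kidney, so these shares are the background for each list below. The median log2 fold change over all genes was -0.05. Sizes depended on which cells were summed. Of the named genes, 37 of 82 moved by over 1.5 times among cells of at most 5% mitochondrial UMIs, 16 of them to a smaller or opposite difference. Without barcodes over 50000 UMIs, 44 of 83 moved, 37 of them to a larger difference.

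The salt-transport machinery was high as a group. Of 16 tested genes of the list, 14 were higher and 1 lower, with a median log2 fold change of 2.34. For Kcnj1 the log2 fold change was 5.32 ± 0.09 (SE; adjusted p 1e-05 by edgeR). Bsnd, which encodes barttin, a channel subunit of the basolateral membrane, stood at 19.3 and 18.4 CPM against 1.82 and 1.21 CPM. For both genes the level was higher than in the other barcodes in both libraries.

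Subunits that accompany the sodium pump were higher. Atp1b1, its beta subunit gene, stood at 1787 and 1734 CPM against 265 and 253 CPM, and the regulatory subunit gene Fxyd2 at 2048 and 2207 CPM against 398 and 413 CPM. The Fxyd2 log2 fold change of 2.38 was 0.70 at a mitochondrial limit of 5%. Basolateral potassium channel genes were also higher: Kcnj16 at 92.7 and 75 CPM against 16.6 and 18.2 CPM, and Kcnj10 at 17.2 and 10.7 CPM against 3.05 and 2.59 CPM. At a mitochondrial limit of 5% the Kcnj10 call was lost (log2 fold change 1.12, adjusted p 0.35 by edgeR). Of the kinases that switch the cotransporter on, Stk39 (SPAK) had a log2 fold change of 1.59 ± 0.07 (SE) and Wnk4 of 1.31 ± 0.12 (SE). Wnk1 stood at 230 and 140 CPM against 134 and 130 CPM and was not called (adjusted p 0.065 by edgeR). Wnk1 was called higher under 6 alternatives, with log2 fold changes from 0.35 to 0.89, and lower at a mitochondrial limit of 5%, at -0.88. Slc12a2, the NKCC1 cotransporter of secretory and other cells, was lower, at 40.7 and 35.9 CPM against 70.6 and 76.2 CPM.

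Of 15 tight junction genes, 11 were higher and 3 lower. Among the claudins of the thick limb, Cldn16 and Cldn19, which form the calcium and magnesium pore, stood at 79.3 and 53.4 CPM and at 163 and 175 CPM, against 1.46 and 1.86 CPM and 8.35 and 11.3 CPM in the other barcodes. Cldn10 (chromosome 14, 118787871 to 118874525), whose b isoform forms the sodium pore, stood at 490 and 702 CPM against 24.6 and 37.7 CPM. Counts from 3' ends do not separate its isoforms. Cldn14, which blocks the cation pore, was rare but higher, at 4.27 and 5.71 CPM against 0.314 and 0.230 CPM. Cldn2, the leaky claudin of the proximal tubule, was lower at 1.59 and 2.32 CPM against 26.0 and 21.6 CPM, and Tjp1, a scaffold found under most epithelial junctions, was lower at 84.6 and 79.5 CPM against 162 and 159 CPM.

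**Figure D1:**
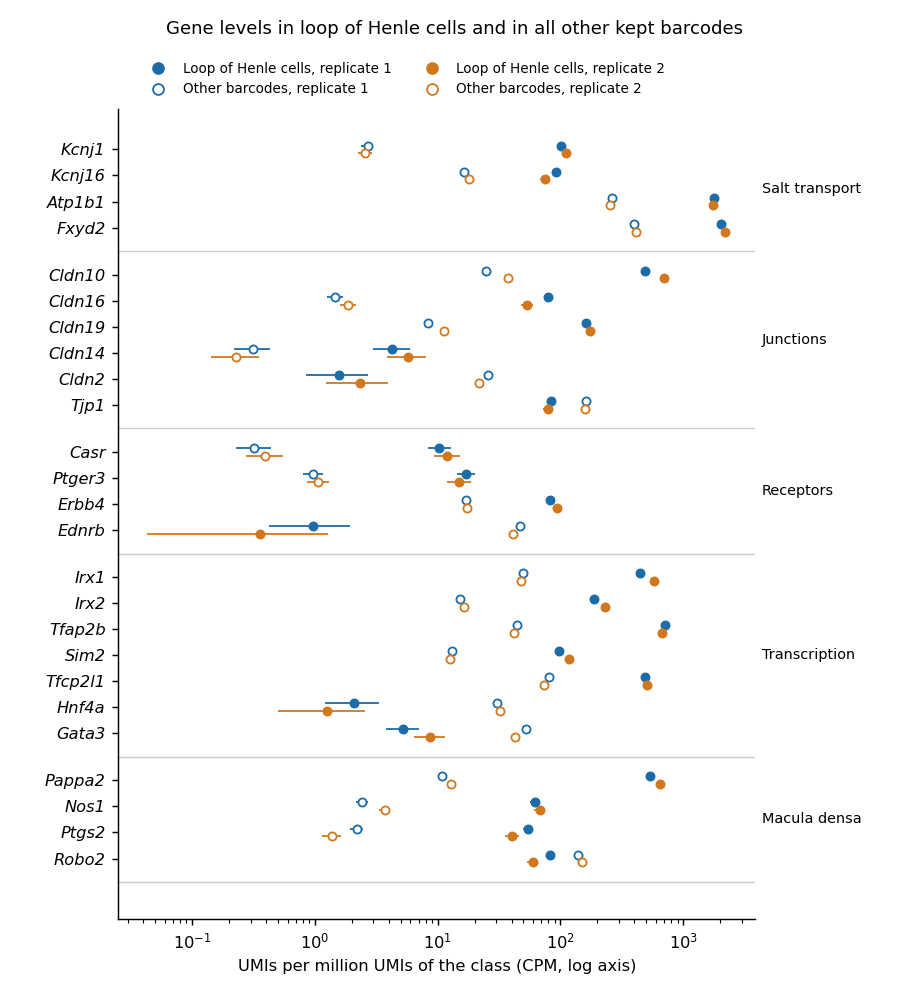
Levels of named genes (log axis, CPM) in loop of Henle cells (filled) and in all other kept barcodes (open) of replicate 1 (blue) and replicate 2 (orange), with exact Poisson 95% intervals for counting error. Kcnj1 and the claudins Cldn10, Cldn16 and Cldn19 lie far to the right in both libraries, while Cldn2, Tjp1, Ednrb, Hnf4a, Gata3 and Robo2 lie to the left of the other barcodes.

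Products of the thick limb other than transporters followed a mixed pattern. Of 14 tested genes of that list, 11 were higher and 1 was lower. The protease inhibitor family gene Wfdc2 stood at 1576 and 1827 CPM against 330 and 306 CPM, and Sostdc1, a secreted BMP and Wnt antagonist, at 741 and 689 CPM against 77.9 and 62.3 CPM. Egf, whose product is made in quantity by the adult distal nephron, stood at 3.05 and 0.893 CPM against 3.09 and 2.67 CPM and was not called, except as lower at a mitochondrial limit of 5% (log2 fold change -1.89). The creatine kinase gene Ckb was lower, at 10.5 and 5.0 CPM against 28.3 and 29.7 CPM. Outside the lists, the highest log2 fold change among the 15 named genes that were higher was that of Klk1, tissue kallikrein, at 338 and 240.2 CPM against 5.31 and 2.27 CPM (log2 fold change 6.30 ± 0.18, SE, adjusted p 2e-05 by edgeR). Kallikreins form a family of close copies, so this value is uncertain as to the copy. Kng2, a kininogen gene, stood at 90.5 and 96.4 CPM against 2.10 and 1.94 CPM.

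Receptors were divided: 8 of 14 were higher and 5 lower. Casr, the calcium-sensing receptor that restrains calcium uptake in the thick limb, stood at 10.4 and 12.0 CPM against 0.322 and 0.394 CPM. Ptger3, the EP3 receptor for prostaglandin E2, stood at 17.2 and 15 CPM against 0.975 and 1.06 CPM, and the neuregulin receptor gene Erbb4 at 82.3 and 94.3 CPM against 17.2 and 17.4 CPM. At a mitochondrial limit of 5% the Ptger3 call was lost (log2 fold change 0.83, adjusted p 0.5 by edgeR). Egfr stood at 1.10 and 0.357 CPM, lower than the 6.68 and 5.54 CPM elsewhere, and the endothelin receptor gene Ednrb at 0.976 and 0.357 CPM, lower than 46.7 and 40.8 CPM.

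Among 30 transcription factor genes, 19 were higher and 7 lower. The Iroquois genes Irx1 and Irx2, which pattern the intermediate nephron, stood at 445 and 575 CPM and at 188 and 231 CPM, against 49.6 and 47.7 CPM and 15.2 and 16.3 CPM. The related Irx3 was lower, at 19.9 and 11.2 CPM against 32.1 and 30.5 CPM. Tfap2b stood at 709 and 674 CPM against 44.0 and 42.3 CPM, and Pou3f3 (Brn1), which the loop needs to elongate, at 311 and 326 CPM against 55.5 and 57.2 CPM. Sim2 stood at 97.8 and 118 CPM against 13.2 and 12.6 CPM, and its relative Sim1 at 78.5 and 66.1 CPM against 20.4 and 21.5 CPM. Mecom, Hoxd8, Tfcp2l1 and the mitochondrial regulators Esrrg and Ppargc1a were higher too, with log2 fold changes between 2.18 and 2.68. Hnf4a, which directs the proximal tubule, was lower at 2.07 and 1.25 CPM against 30.5 and 32.2 CPM, and Gata3, a ureteric factor, at 5.24 and 8.75 CPM against 52.6 and 42.6 CPM. Lhx1, an early nephron factor, was lower in summed level, at 177 and 111 CPM against 209 and 225 CPM (adjusted p 0.04 by edgeR), a call lost with a minimum of 2 UMIs of the pair (adjusted p 0.1). Yet at 5000 UMIs a barcode, an Lhx1 UMI was seen in 40.0% and 27.5% of loop of Henle cells and in 18.8% and 18.9% of the others.

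Nuclear genes of oxidative phosphorylation were mostly higher in these cells than in the mixture, but not than in single tubule classes, as given below. Every one of the 15 nuclear genes of the ATP synthase and of the 9 of complex III was higher, as were 30 of 37 of complex I, with 1 lower. The sums differed by modest amounts: ATP synthase genes together stood at 12392 and 11723 CPM against 8320 and 8358 CPM. Of 20 genes of energy metabolism, 15 were higher and 2 lower; the mitochondrial creatine kinase Ckmt1 was at 49.8 and 40.7 CPM against 7.62 and 4.71 CPM, and the lactate dehydrogenase subunit Ldhb at 991 and 955 CPM against 461 and 391 CPM. Of the 13 protein genes of the mitochondrial genome, 8 were higher and 1 lower. The median mitochondrial share was 6.55% and 6.54% of a loop of Henle cell's UMIs, against 5.10% and 5.48% in the other barcodes. The limit of 10% chose which cells were summed, and the part of RNA quality and of that limit in these levels was not tested.

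Cell cycle genes were mostly lower than in the mixture, 14 of 18 against 3 higher. Against the proximal tubule class described below, 15 of the 18 were higher and 2 lower, where 23.0% of all genes were higher and 23.2% lower. Against the collecting duct class 12 were higher and 2 lower, where 10.2% of all genes were higher and 13.2% lower. The differences were small: Mki67 stood at 172 and 192 CPM against 220 and 222 CPM, a call lost at a mitochondrial limit of 5% (log2 fold change -0.19), and Top2a at 206 and 210.4 CPM against 290.3 and 288 CPM. At 5000 UMIs a barcode, a Mki67 UMI was seen in 20.6% and 22.1% of loop of Henle cells and in 26.0% and 26.0% of the others. The G1 cyclin gene Ccnd1 was higher, at 669 and 743 CPM against 393 and 379 CPM, while Ccnd2 was lower, at 85.6 and 64.3 CPM against 202 and 175 CPM. The cyclin-dependent kinase inhibitor gene Cdkn1c was lower, at 333 and 138 CPM against 886 and 962 CPM, and was 2.42 times as high in replicate 1 as in replicate 2.

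Of the 16 Notch pathway genes, 2 were higher and 10 lower. Rbpj itself, the transcription factor on which Notch signals converge, stood at 42.7 and 47.0 CPM in loop of Henle cells and at 46.8 and 47.3 CPM elsewhere, and was not called (log2 fold change -0.08 ± 0.07, SE). Notch3 was higher, at 28.7 and 27.7 CPM against 11.4 and 10.3 CPM, and so was the target gene Hes1, at 224 and 187 CPM against 154 and 144 CPM. Notch2, the receptor that shapes the proximal nephron, was lower, at 14.8 and 10.2 CPM against 25.4 and 27.6 CPM. The floxed exons are not named in the labels, and these counts do not tell a recombined Rbpj transcript from a complete one.

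The remaining lists gave fewer one-sided results. Of 9 tested genes of cystic kidney disease, 5 were higher and 3 lower, with Pkhd1 at 69.6 and 52.1 CPM against 18.7 and 16.4 CPM and Pkd2 at 84 and 85.5 CPM against 46.7 and 51.2 CPM; the Pkd2 call was lost at a limit of 5% (log2 fold change 0.30). Of 12 genes of protein folding in the endoplasmic reticulum, 3 were higher and 1 lower. Of 11 tested keratin, epithelial and injury genes, 8 were higher, among them Epcam and Cdh16, and 3 were lower, among them Vim at 22.4 and 7.32 CPM against 453 and 414 CPM and the injury gene Lcn2 at 4.51 and 8.57 CPM against 43.2 and 27.3 CPM. Among genes of the thin limb list, 3 of 10 were higher, led by Tspan8 at 177 and 209.6 CPM against 49.7 and 41.9 CPM, and 5 were lower, among them Cryab at 16.5 and 7.5 CPM against 77.4 and 68.7 CPM. Distal convoluted and connecting tubule genes were divided, 4 of 14 higher and 6 lower: the calcium-binding protein gene S100g was higher, at 565 and 407 CPM against 197 and 174 CPM, and Calb1 lower, at 3.78 and 14.6 CPM against 110.3 and 92.6 CPM. The S100g call was lost at a mitochondrial limit of 5% (log2 fold change 0.05, adjusted p 0.85 by edgeR) and at one of 20% (0.24, adjusted p 0.27).

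The 3 neighbouring tubule classes were set beside the loop of Henle cells in 1 fit, each picked by its own marker: 181 and 143 proximal tubule barcodes by Slc34a1, 81 and 59 collecting duct barcodes by Aqp2, and 4 and 5 distal tubule barcodes by Slc12a3. Against the proximal tubule 3195 of 13912 genes were higher (23.0%) and 3230 lower (23.2%). Against the collecting duct 1413 were higher (10.2%) and 1830 lower (13.2%). Against the distal tubule, 259 were higher (1.86%) and 286 lower (2.06%), but that class is a handful of barcodes. A looser rule from 1 Slc12a3 UMI gave 488 and 631. At a mitochondrial limit of 20% the distal class held 38 and 48 barcodes, and 1893 genes were higher and 1723 lower. The distal contrasts reported by gene cover only distal barcodes within the 10% limit. Simulated data with the class sizes of the 10% limit recovered 12.0% of 2-fold changes against the distal class and 78.3% against the proximal one.

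Against the proximal tubule, Pappa2 was higher, with 0.388 and 0.326 CPM in proximal cells, where Kcnj1 stood at 0.129 and 0.326 CPM. These proximal levels rest on 1 to 3 UMIs a library. Tfap2b stood at 3.10 and 1.47 CPM there (log2 fold change 8.0 ± 0.16, SE, adjusted p 7.6e-12 by edgeR). In the other direction, Hnf4a stood at 230.3 and 281 CPM in proximal cells, the monooxygenase gene Fmo1 at 228 and 290.4 CPM, and the organic anion transporter gene Slc22a6 at 215 and 181 CPM. Of 37 complex I genes, 19 were lower in loop of Henle cells than in the proximal class and 0 higher by edgeR, also at an unadjusted p of 0.05 (21 lower, 0 higher) and by DESeq2 (21 lower, 0 higher). Complex II, with 4 of 4 genes lower, and the mitochondrial genome, with 6 of 13 lower and 0 higher, also lay above the 23.2% of all genes. Shares of lower calls lay under it in the ATP synthase (2 of 15) and in complex IV (2 of 14, with 1 higher). In complex III 0 of 9 were lower, with 3 lower at an unadjusted p of 0.05 and 1 by DESeq2.

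Against the collecting duct, transcription factor and transport genes differed. Sim2 stood at 0.210 and 0 CPM in the collecting duct, Irx2 at 0.630 and 0.328 CPM, Irx1 at 1.89 and 1.64 CPM, and Cldn10 at 7.14 and 1.31 CPM. Fxyd2 stood at 56.3 and 32.5 CPM there (log2 fold change 5.62 ± 0.47, SE, adjusted p 1.8e-06 by edgeR). The chemokine gene Cxcl12 was also higher in loop of Henle cells, at 355 and 391 CPM against 9.03 and 2.62 CPM. Fxyd4, of the same regulatory family as Fxyd2, stood at 1065 and 1098 CPM in the collecting duct, where the sodium channel subunit gene Scnn1b, at 345 and 399 CPM, and the transcription factor genes Tbx3 and Elf5 were higher as well. Of the 15 ATP synthase genes, edgeR called none in either direction, adjusted or unadjusted, and DESeq2 called 1 higher, with sums of 11457 and 11046 CPM in the collecting duct.

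The distal tubule is the next segment downstream. Cldn10 and Irx2 had no UMI among the 9 distal barcodes, and against the limit that a count of 0 allows (3 UMIs over both libraries, 10.5 CPM) they were at least 54.6-fold and at least 19.4-fold higher in loop of Henle cells. These bounds hold for those 9 barcodes only. Against the 22 and 28 barcodes of the looser rule, the log2 fold change was 6.05 for Cldn10 and 3.60 for Irx2, which is less than that bound for Irx2, and Irx1 went from 7.29 to 3.23. Pappa2 had 0 and 2 UMIs in the distal class, and Irx1 had 0 and 1. Calb1, a calcium buffer of the distal tubule, stood at 469 and 982 CPM there and was lower in loop of Henle cells, a call lost without barcodes over 50000 UMIs (log2 fold change -3.32, adjusted p 0.091 by edgeR). The transcription factor gene Emx1 stood at 612 and 478 CPM. Of the 16 salt transport genes, edgeR called 0 higher and 5 lower than in the distal class, and at an unadjusted p of 0.05, as by DESeq2, 0 were higher and 7 lower. Oxidative phosphorylation genes were lower than in the distal class, by edgeR 12 of 15 of the ATP synthase, 26 of 37 of complex I and 7 of 9 of complex III, with 0 higher in each. In those 3 groups none was higher at an unadjusted p of 0.05 or by DESeq2 either. Of 14 complex IV genes, 10 were lower and 0 higher by edgeR and by DESeq2, and 1 was higher at an unadjusted p of 0.05. ATP synthase genes summed to 26199.8 and 19328 CPM in the distal class.

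Loop of Henle cells were not uniform, and the count of Slc12a1 and Umod ordered several of the other genes. This is a description, because that count was part of the rule. With 4 to 9 UMIs of the pair, a Kcnj1 UMI was seen in 8.70% of 23 cells and 15.2% of 33 cells. With 10 to 49 UMIs it was seen in 49.2% of 59 and 45.5% of 55 cells, and with 50 or more in 93.3% of 89 and 90.5% of 63 cells. Tfap2b was seen in most cells of every band, from 87.0% and 100% in the lowest to 100% and 100% in the highest, and its level ran from 607 and 537 CPM to 755 and 732 CPM. Cldn10 was seen in 82.6% and 93.9% of the lowest band, and its level ran from 219 and 447 CPM to 595 and 869 CPM. Irx1 had no shared order, with 540 and 503 CPM in the lowest band and 436 and 590.3 CPM in the highest. Lhx1 ran the other way in level, from 313 and 185 CPM in the lowest band to 90.1 and 62.8 CPM in the highest. Median depth was 18362 and 15966 UMIs in the lowest band and 38181 and 32847 in the highest, and the part of depth in the shares of cells was not tested.

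The mitochondrial limit cut through the same order. Besides the cells kept, 116 and 126 barcodes met the marker rule and the UMI minimum with more than 10% mitochondrial UMIs. Their thick limb levels were the highest of all, taken as CPM of the UMIs outside the mitochondrial genome. Slc12a1 stood at 370 and 761 CPM in cells of at most 5% mitochondrial UMIs, 2898 and 2691 CPM between 5 and 10%, 6747 and 6071 CPM between 10 and 20%, and 10413 and 9964 CPM above 20%.

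**Figure D2:**
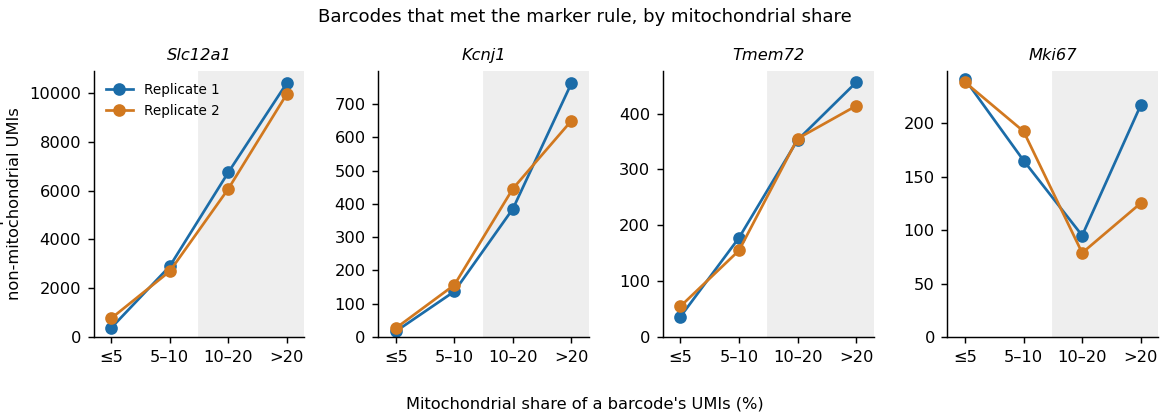
Summed levels of Slc12a1, Kcnj1, Tmem72 and Mki67 (CPM of non-mitochondrial UMIs) in all barcodes that met the marker rule, by the mitochondrial share of the barcode; the shaded bands lie above the 10% limit and outside the set described here. Slc12a1 climbs from 370 and 761 to 10413 and 9964, Kcnj1 and Tmem72 climb with it in both replicates, and Mki67 is lowest between 10 and 20% and higher again above 20%.

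Kcnj1, Tmem72 and Cldn16, which are outside the rule, moved in the same direction. Kcnj1 ran from 16.8 and 26.4 CPM in the lowest mitochondrial band to 137 and 156, 385 and 446, and 762 and 650 CPM in the bands above it. Tmem72 ran from 36.2 and 54.8 CPM to 456 and 414 CPM, and Cldn16 from 37.3 and 27.1 CPM to 321 and 226 CPM. Other genes had no steady order. Mki67 was at 241 and 238, 165 and 192, 94.9 and 78.6, and 217 and 125 CPM in the bands from lowest to highest. Pappa2 was at 299.7 and 440 CPM, 658 and 787 CPM, 453 and 505 CPM, and 777 and 173 CPM. Median depth fell across the bands from 34566 and 25479.5 UMIs to 5173 and 4821, and the bands held 31 and 28, 140 and 123, 87 and 99, and 29 and 27 barcodes. Mitochondrial share, depth and thick limb RNA moved together here, and the part of RNA quality was not tested. The limit of 10% thus left out the bands with the most Slc12a1.

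Of the 8 macula densa genes, 5 were higher in loop of Henle cells than in the other barcodes and 2 were lower. Pappa2 (chromosome 1, 158711727 to 158960451), a protease that releases insulin-like growth factors, stood at 533 and 646 CPM against 10.9 and 13 CPM, for a log2 fold change of 5.62 ± 0.05 (SE; adjusted p 3e-06 by edgeR). Nos1 (chromosome 5, 117866839 to 117958840) stood at 62.3 and 68.2 CPM against 2.43 and 3.70 CPM, Ptgs2 at 54.4 and 40.2 CPM against 2.20 and 1.37 CPM (log2 fold change 4.73, but 1.91 at a mitochondrial limit of 5%), and the prostaglandin E synthase gene Ptges at 46.6 and 38.0 CPM against 6.79 and 5.58 CPM. Robo2, also high in podocytes and early nephrons, was lower than in the mixture, at 81.8 and 59.5 CPM against 140 and 151 CPM. At 5000 UMIs, Pappa2 was seen in 58.8% and 63.1% of the cells and Nos1 in 16.5% and 19.5%, against 1.53% and 1.59% and 0.642% and 1.07% of other barcodes.

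Nos1 was seen in part of the cells. Without thinning, 55 of 171 cells in replicate 1 and 52 of 151 in replicate 2 held a Nos1 UMI, of which 17 and 19 held exactly 1 and 18 and 15 held 5 or more. This split was chosen after its values were seen and is given without a test. Among the cells with a Nos1 UMI, 54.5% and 51.9% also held Ptgs2, against 12.1% and 5.05% of those without, and 98.2% and 100% held Pappa2, against 64.7% and 64.6%. Umod went the other way, seen in 29.1% and 48.1% of cells with Nos1 and 66.4% and 63.6% of those without. Cells with a Nos1 UMI were deeper, at medians of 26411 and 28821 UMIs against 22248 and 17590, and the part of depth in the shares with Ptgs2, Pappa2 and Umod was not tested.

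**Figure D3:**
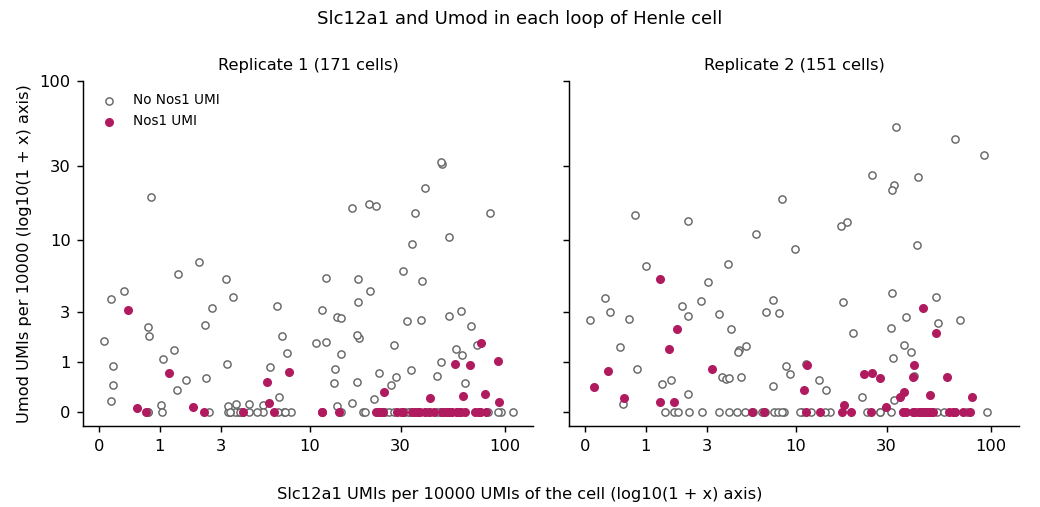
Slc12a1 (horizontal) and Umod (vertical) UMIs per 10000 UMIs in each of the 171 and 151 loop of Henle cells, on log10(1 + x) axes; filled points hold a Nos1 UMI. The cells of highest Umod carry no Nos1 UMI in either library, and cells with Nos1 lie mostly along the bottom, many of them at high Slc12a1.

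Of 3685 genes at 50 CPM or more in either part of the split, 63 were at least 2-fold higher in the cells with Nos1 in both libraries (1.71%) and 14 at least 2-fold lower (0.38%). Ptgs2 stood at 140 and 77.8 CPM with Nos1 and at 8.79 and 4.19 CPM without. Pappa2 stood at 1036 and 1053 CPM against 264 and 256 CPM, Robo2 at 144 and 108 CPM against 48.8 and 12.9 CPM, and Bmp3 at 174 and 174 CPM against 65.3 and 65.0 CPM. So 4 genes of the macula densa list other than Nos1 lay past 2-fold together in both libraries. Ptges was 3.50-fold and 1.77-fold higher, and Ncam1 was 0.863 and 0.973 of its level in the other cells.

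Genes outside that list went with Nos1 as well. S100g stood at 1421 and 744 CPM against 108 and 85.6 CPM, Klk1 at 888 and 439 CPM against 44.5 and 49.6 CPM, and Kl, which encodes the phosphate and calcium regulator Klotho, at 62.0 and 43.5 CPM against 5.61 and 6.99 CPM. Col4a3 and Col4a4, chains of the basement membrane collagen network altered in Alport syndrome, stood at 146 and 82.5 CPM and at 263 and 147 CPM, against 23.6 and 16.8 CPM and 44.3 and 32.5 CPM. Etv1, Klf4, Ramp3, Sfrp1 and Slit2 were also past 2-fold in both libraries. Col4a3, Col4a4 and Robo2 are podocyte genes too. The podocyte markers summed to 91.5 and 10.2 CPM over the whole set, and their part in these levels was not tested. The kinase gene Wnk4 stood at 100.1 and 61.0 CPM against 40.0 and 30.4 CPM.

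The median cell with a Nos1 UMI held 67 and 52 Slc12a1 UMIs, against 37 and 17 without, and was also deeper. Kcnj1, Tmem72 and Cldn10 stayed within 2-fold in both libraries. Kcnj1 stood at 113 and 97.9 CPM with Nos1 and 93.6 and 126 CPM without, Tmem72 at 174 and 132 CPM against 112 and 106 CPM, and Cldn10 at 421 and 649 CPM against 527 and 753 CPM. Lower with Nos1 were Umod, at 18.2 and 53.0 CPM against 240.3 and 575 CPM, Plau, the urokinase gene, at 5.60 and 12.1 CPM against 64.9 and 111 CPM, and Foxc1, at 22.1 and 34.7 CPM against 83.8 and 92.2 CPM.

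**Figure D4:**
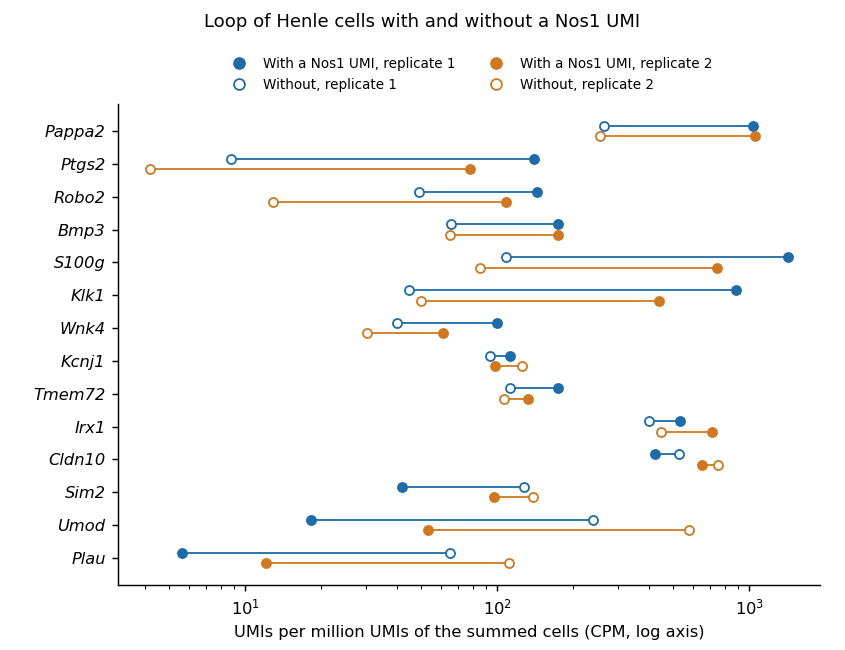
Summed levels (CPM, log axis) of named genes in loop of Henle cells with (filled) and without (open) a Nos1 UMI, in replicate 1 (blue, 55 and 116 cells) and replicate 2 (orange, 52 and 99 cells). Pappa2, Ptgs2, Robo2, Bmp3, S100g and Klk1 lie higher with Nos1 and Umod and Plau lower in both libraries, while Kcnj1 and Cldn10 stay near their level.

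Cells were also parted at the median Umod level of their library, 0.119 and 0.323 UMIs per 10000, into 85 and 75 cells above and 86 and 76 at or below it. Umod is one of the 2 genes whose count chose the cells. A cell with little Umod had to reach the minimum of the pair mostly with Slc12a1. In a cell with much Umod, Slc12a1 had only to exceed Slc12a3. The differences are therefore a description with no test. Slc12a1 stood at 2045 and 1690 CPM above the cut and 2227 and 2376 CPM at or below it. A cut of a level is a range and not a cell type.

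Cells with more Umod held more Sim2, at 150 and 199 CPM against 35.4 and 27.0 CPM. Plau stood at 70.7 and 110.2 CPM against 12.6 and 8.74 CPM. The growth factor gene Pdgfa stood at 346 and 485 CPM against 168 and 178 CPM, and the transcription factor genes Foxc1 and Nr2f1 at 85.9 and 95.3 CPM and at 76.3 and 90.6 CPM, against 34.1 and 28.9 CPM and 30.3 and 24.3 CPM. The ephrin receptor gene Epha7 was at 25.7 and 25.3 CPM against 8.58 and 7.98 CPM. For each of these genes both libraries differed in the same direction. Cldn10 stood at 624 and 886 CPM against 330 and 495 CPM, although the direction reversed among cells of at most 5% mitochondrial UMIs (log2 fold change -0.31). Among cell cycle genes Mki67 stood at 199 and 238 CPM against 139 and 141 CPM, Top2a at 242 and 256 CPM against 162 and 158 CPM, and Ccnd1 at 766 and 939 CPM against 553 and 522 CPM.

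Genes that went with Nos1 stood higher in the cells at or below the cut. Nos1 stood at 18.6 and 10.8 CPM above and 115 and 133 CPM at or below, Klk1 at 106 and 29.0 CPM against 617 and 478 CPM, S100g at 172 and 81.2 CPM against 1038 and 775 CPM, and Robo2 at 28.9 and 18.5 CPM against 145 and 106 CPM. Spp1, the osteopontin gene, stood at 132 and 28.0 CPM against 343 and 234 CPM. Ptgs2 stood at 25.3 and 3.37 CPM against 89.3 and 81.7 CPM, and Pappa2 at 409 and 312 CPM against 681 and 1023 CPM. Some of these gaps were smaller when cells with 2 or more UMIs of the pair were taken. The log2 difference of Nos1 went from -2.92 to -1.55, of S100g from -2.80 to -1.69 and of Pappa2 from -1.12 to -0.51. That of Sim2 went from 2.53 to 2.85, but was 1.51 without barcodes over 50000 UMIs. The log2 difference of Plau went from 3.08 to 1.52 at a mitochondrial limit of 5%.

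**Figure D5:**
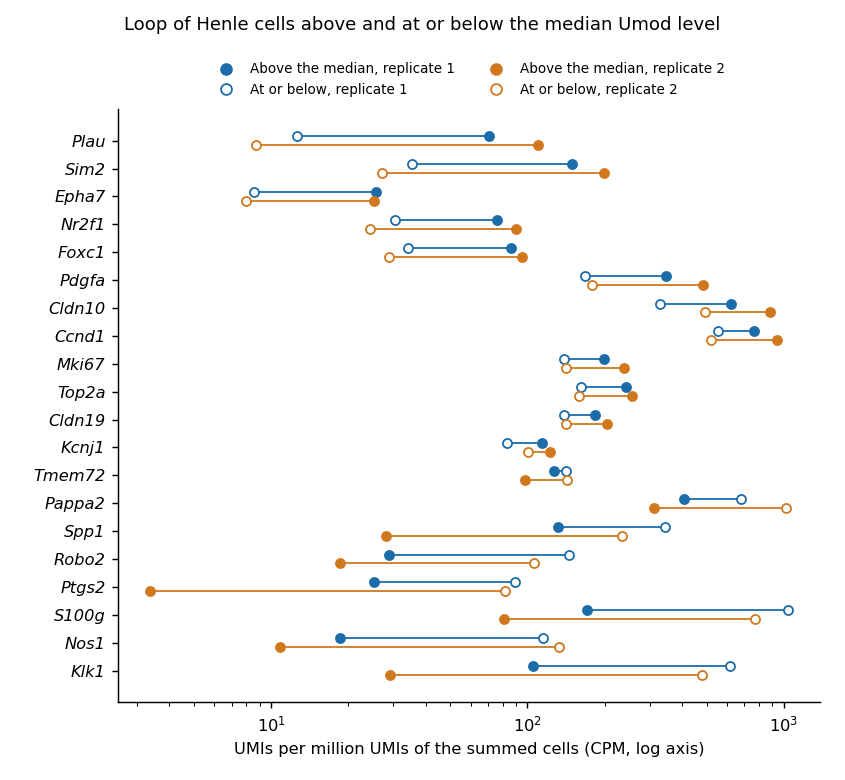
Summed levels (CPM, log axis) of named genes in loop of Henle cells above (filled) and at or below (open) the median Umod level of their library, in replicate 1 (blue, 85 and 86 cells) and replicate 2 (orange, 75 and 76 cells). Plau and Sim2 lie higher above the cut and Klk1, Nos1 and S100g lower in both libraries, while Kcnj1 and Tmem72 lie close together.

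Transport and junction genes differed less. Kcnj1 stood at 114 and 123 CPM above against 83.4 and 100.3 CPM at or below, and Tmem72 at 127 and 97.7 CPM against 142 and 142 CPM. The direction of Kcnj1 reversed at a mitochondrial limit of 5% (log2 difference -0.50). That of Tmem72 reversed with a minimum of 2 UMIs of the pair (0.12) and at a mitochondrial limit of 20% (0.21). Cldn19 was at 184 and 205 CPM against 138 and 142 CPM, and Cldn16, its partner, at 64.2 and 32.3 CPM against 97.4 and 77.1 CPM. Wt1, a transcription factor gene of podocytes, was high at or below the cut in replicate 1, at 98.4 CPM against 9.84 CPM above, and stood at 4.18 CPM against 3.37 CPM in replicate 2. Without cells of more than 50000 UMIs its log2 difference was -0.28. Without the 8 cells of 4 or more podocyte UMIs, that of Nos1 was -2.44 and that of Sim2 2.44.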

How the data were processed

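UMI counts per gene and barcode were used as deposited; the matrices are unfiltered (2720964 and 2654938 barcodes, 28693 features). They were written by Cell Ranger 4 per the file headers, while the submitters' processing notes name Cell Ranger 6.0.1 and the build mm10. Gene coordinates come from RefSeq's GRCm38.p6 table, in which 316 of 322 genes looked up matched by symbol. Replicates were numbered in the order of their records. The rule, the lists and the tests were chosen with earlier results of these data known.

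UMIs were summed per library and class and tested with edgeR 4.0.16 (limma 3.58.1, R 4.3.3; TMM, filterByExpr, library as a block, quasi-likelihood test, Benjamini-Hochberg over all genes, threshold 0.05). Members against the rest had 1 residual degree of freedom, and the fit with the 3 other tubule classes 4. DESeq2 1.42.0 was an alternative. Python 3.11.15, scanpy 1.11.5, numpy 2.4.6, scipy 1.17.1, pandas 2.3.3 and matplotlib 3.10.9 did the rest. The 7 rule genes received no test. The division of cells by Umod was fitted but is given as a description, because Umod was part of the rule. Some genes of the lists are counted but not reported here by name. Named genes were list members or, per comparison, the 15 highest and 10 lowest changes at 50 CPM or more in the higher class, called and in 1 direction in both libraries, leaving out mitochondrial, ribosomal protein and hemoglobin genes; Xist and the genes of the Nos1 split were chosen after their values were seen. On simulated data for members against the rest, 77.8% of 2-fold and 93.9% of 4-fold changes were recovered, with 7 false calls among 16356 genes. Doublets were not removed in the main result: Scrublet's own threshold marked 63 (1.01%) and 22 (0.427%) barcodes, so in an alternative the highest scores (310 and 212) were removed, 18 and 4 of them loop of Henle cells. Intervals cover counting error only.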

Additional observations from a re-analysis of the deposited data

Results flagged for a closer look

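EYFP, a fluorescent reporter gene in the deposited feature list that no comparison above uses, had UMIs in 23 of 171 loop of Henle cells of replicate 1 and 20 of 151 of replicate 2. Its level was 9.15 CPM from 75 UMIs in replicate 1 and 15.2 CPM from 85 UMIs in replicate 2, above the limit that a count of 0 allows. Barcodes of at most 100 UMIs, which hold free RNA, had 48.0 and 49 CPM. It was seen in 1874 of 5783 and 1454 of 4791 of the barcodes outside the tubule classes. The labels do not describe the reporter.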

How the results depend on the processing

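Of 1359 alternative values for 108 tested results of named genes, 1339 kept their direction and, where a p-value was given, their side of the threshold. Of the others, 10 fell below it, 7 passed it and 3 reversed. Values with 1 library left out have no p-value and were compared by direction only. The planned test along Umod was dropped because Umod chose the cells; of 340 alternative values for 29 genes there, 293 moved by at most 1.5 times, 43 by more, and 4 reversed. The number of loop of Henle cells, 322, was 59 at a mitochondrial limit of 5% and 508 at 20%, and 151 to 171 with 1 library left out. Against the rest DESeq2 called 4904 genes in place of 7702. Against the distal tubule 545 calls became 904 without a filter on low counts, 852 with DESeq2 (263 higher, 589 lower), 1119 with the looser distal rule, 3616 at a 20% limit and 189 without barcodes over 50000 UMIs (144 higher, 45 lower). Against the collecting duct that last setting gave 2042 in place of 3243. The causes were not tested. Reversed log2 fold changes against the rest at a 5% limit were Wnk1 at -0.88, Spp1 at -1.30 and Rbpj at 0.10; along Umod at that limit, Cldn10 at -0.31 and Kcnj1 at -0.50; and Tmem72 along Umod at 0.12 with a minimum of 2 UMIs and 0.21 at a 20% limit. The settings of 20%, 50000 UMIs, podocyte UMIs, the looser distal rule, a rest without other Slc12a1 barcodes and, for gene tests, a minimum of 5000 UMIs were chosen after seeing the data. With 1 library left out no residual degrees of freedom remain, so no calls were counted, and at 5% the distal class held 0 barcodes in replicate 1 and 1 in replicate 2, and the 3 tubule comparisons were not fitted. Library was a block in every fit, which pairs the classes of a library.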
